A study of Homo sapiens with 8 samples.

Results

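Embryoid bodies and undifferentiated human embryonic stem cells were compared after both had been exposed to 20 mM ethanol for 24 h. RNA was measured on Affymetrix expression arrays, with 2 arrays of embryoid bodies at 20 mM ethanol, 2 of undifferentiated cells at 20 mM ethanol, and the same 2 stages at 0 mM ethanol with 2 arrays each, 8 in all. Per the labels every culture was of H9, an established human embryonic stem cell line, kept under a standard stem cell protocol in mTeSR medium, and total RNA was isolated with an RNeasy kit. Every gene with a probe set naming that gene alone was a member of the comparison, which gave 19775 genes, and the 14079 genes that passed a filter on low signals were tested. Replicates carry the letters A and B, with no word on separate cultures, so p-values measure the spread between these samples, which may be technical. The age of the embryoid bodies and the way they were formed are not given in the sources used here.

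Embryoid bodies are floating aggregates that form when pluripotent cells are released from the conditions that hold them undifferentiated. Cells inside them leave pluripotency and begin to make derivatives of endoderm, mesoderm and ectoderm side by side, so an embryoid body is a mixture of cell types and not one of them. Ethanol is oxidised to acetaldehyde and then to acetate by alcohol and aldehyde dehydrogenases, and catalase can take part in the first step. In RNA from whole cultures, a lower signal can come from fewer cells of a type or from less RNA per cell, and these cannot be told apart.

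When line-specific transcripts were used to check the labelled cell line, 4 of 8 arrays failed that check. All 4 belonged to 1 stage, and 2 of them are in the comparison at 20 mM ethanol. Stage and cell line therefore cannot be told apart anywhere below. Median signals per array were 74.1 and 79.4 in undifferentiated cells at 20 mM ethanol and 102 on both embryoid body arrays at 20 mM, on a scale whose trimmed mean was about 500 on every array. The number of arrays limits the precision. The median difference between replicate arrays was 0.10 on the log2 scale in embryoid bodies and 0.17 in undifferentiated cells, against a median stage change of 0.45 in either direction.

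The stages differed in a large share of the tested genes. At 20 mM ethanol 4114 genes (29.2% of those tested) were higher in embryoid bodies and 3809 (27.1%) were lower, at an adjusted p under 0.05 from limma fitted to all 8 arrays, which is what "called" means below. Changes are embryoid bodies minus undifferentiated cells on the log2 scale with the standard error of the fit. The median change of all tested genes was 0.02. Higher genes moved further than lower genes: the median size was 1.86-fold among the former and 1.51-fold among the latter. A test against a 2-fold change left 775 genes higher (5.5%) and 151 lower (1.07%). Many genes that were higher in embryoid bodies had undifferentiated signals under the median of all probe sets, where a fold is imprecise. For these, values under an array's median were set to that median and the result is given as "at least N-fold". On that measure 463 called genes were at least 4-fold higher (3.29%) and 37 at least 4-fold lower (0.263%), and 64 were at least 16-fold higher (0.455%).

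Both embryoid body arrays lay above both undifferentiated arrays in 39.6% of tested genes and below them in 37.6%, and this held for every called gene. The direction of the change followed the brightness of the gene. When tested genes were split into deciles by mean signal, the dimmest had a median change of 0.35. The brightest decile had -0.30, with 56.0% of its genes called lower and 16.4% higher. Lists of abundant transcripts are read below beside those shares. The filter admitted 550 genes through embryoid body arrays alone, of which 482 were called higher, and 477 through undifferentiated arrays alone, of which 150 were called lower. The direction of genes admitted in this way was largely set by their being tested. Among called genes with a further probe set above the median, all such sets shared the direction in 84.4% of those higher and in 71.0% of those lower. Folds are those of 1 probe set per gene. When a gene's probe sets were averaged instead, 53 of the 252 genes named here or among the closing observations that then had a value moved by over 1.5-fold, most of them towards 0, and 15 lost their call. Without probe sets that can detect several transcripts 18 of 203 moved that far and 4 lost their call. Members whose direction depended on the probe set were mostly left out of the text. These counts therefore cannot measure how far tested genes in general depend on the probe set. Each choice was also fitted anew to all its genes, so a call can be lost without a smaller change. ALDH2, with 1 probe set, and CLDN10, whose change grew, lost theirs in this way. Genes that lost a call with the mean of probe sets, or without those that can detect several transcripts, are named below with the change they then had.

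**Figure D1:**
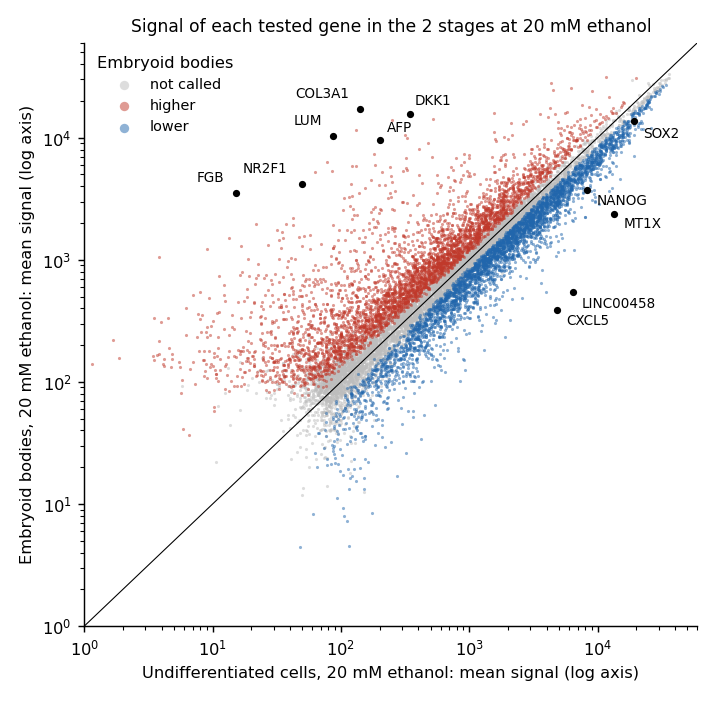
Mean signal of each tested gene in undifferentiated cells (x axis) and in embryoid bodies (y axis) at 20 mM ethanol, 2 arrays each, on log axes, with genes called higher in red and lower in blue, and genes used to check the cell line left out. The cloud of higher genes reaches much further from the line of equal signal than the cloud of lower genes, and COL3A1, LUM, AFP and FGB lie far above it while CXCL5 and LINC00458 lie below.

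The largest increases included genes of secreted matrix, plasma and lipid-carrying proteins. COL3A1, a fibrillar collagen chain of connective tissue, gave signals of 100 and 195 in undifferentiated cells against 17400 and 17000 in embryoid bodies, a 123-fold difference (log2 change 6.94 ± 0.29, adjusted p = 4.5e-05). LUM, the small matrix proteoglycan lumican, went from 83.2 and 91.2 to 10000 and 10700, or 119-fold higher, with a log2 change of 6.89 that was 3.09 without probe sets that can detect several transcripts. GASK1B, a Golgi-associated protein, read 67.6 and 89.1 against 6030 and 6760, at least 75.9-fold higher. The Wnt antagonist DKK1 was at 316 and 372 in undifferentiated cells against 15800 and 15100 in embryoid bodies, 45.2-fold higher. IGFBP7, a secreted binding protein of insulin-like growth factors, was 34.7-fold higher, at 4170 on both embryoid body arrays against 138 and 105. CST2, a salivary-type cystatin, was 44.2-fold higher, on a probe set of a kind that can detect related family members. For each of these 6 genes the arrays of the stages were far apart compared with the spread of their replicates.

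Falls were smaller, and the 15 lowest genes were of several kinds, among them a pair of chemokines and a pair of noncoding transcripts. CXCL5, which attracts neutrophils, read 5620 and 4170 in undifferentiated cells against 347 and 427 in embryoid bodies, 12.6-fold lower (log2 change -3.65 ± 0.17, adjusted p = 5.84e-05). CXCL6, a close relative, was 6.1-fold lower, from 871 and 955 to 182 and 123. LINC00458, a long noncoding transcript, had the next largest fall after CXCL5. It went from 5890 and 6920 to 537 and 562, 11.6-fold lower, and TUNAR, another noncoding transcript with a role in neural differentiation of stem cells, from 2090 and 2040 to 302 and 339, 6.46-fold lower. GDA, the guanine deaminase, was 8.13-fold lower (log2 change -3.02, and -0.88 without probe sets that can detect several transcripts) and the neuronal pentraxin NPTX1 7.33-fold lower. LCK, a Src-family kinase best known from T cells, was 7.16-fold lower (3550 and 4370 against 631 and 479). MEIOC, a meiosis gene, was at least 8.13-fold lower, its embryoid body signals of 95.5 and 107 straddling the array median. The remaining genes of the 15 lowest were CUZD1, PSMB8, a subunit of the immunoproteasome, MT1X, HSPA2, DIAPH2, an actin-nucleating formin, the cytokine TNFSF11 and the phospholipase PLA2G4C, between 5.31-fold and 7.08-fold lower, PLA2G4C as a lower bound. PLA2G4C was not called with the mean of its probe sets (log2 change -1.64).

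The labelled stages matched their defining markers. Of 8 markers of undifferentiated cells, 7 could be measured by a probe set for that gene alone, and all 7 were above the median in both stages and called lower in embryoid bodies, with summed signals of 103000 and 98900 in undifferentiated cells against 63500 and 60800 in embryoid bodies. All 5 markers of endoderm and yolk sac, all 5 of mesoderm and all 4 of neuroectoderm were called higher. Summed signals of the endoderm markers were 858 and 628 in undifferentiated cells against 32600 and 31700 in embryoid bodies. Of 4 cardiac markers 3 had a probe set of their own, with 1 above the median in undifferentiated cells and 2 in embryoid bodies. Their sums, 2930 and 2990 against 3080 and 3060, rest in undifferentiated cells mainly on that 1 gene. Of the 2 tested, 1 was called higher. None of 3 markers of immune cells passed the filter, with summed signals of 62.9 and 61.9 against 114 and 189. Of 3 endothelial markers 2 were tested and none was called, and the 1 tested germ cell marker was lower. Of 3 trophoblast markers 2 were tested, of which 1 was called higher and 1 lower. Summed signals of the trophoblast markers were 521 and 480 in undifferentiated cells against 1900 and 1990 in embryoid bodies. The part of pluripotent cells remaining within the embryoid bodies in these signals was not tested.

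**Figure D2:**
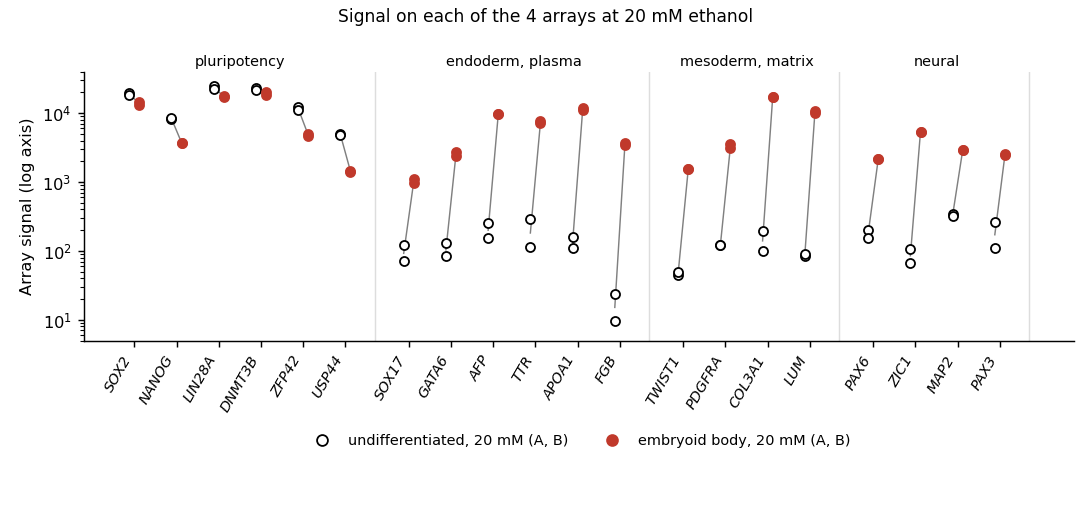
Signals on each of the 4 arrays at 20 mM ethanol (log axis) of 20 genes of pluripotency, endoderm and plasma proteins, mesoderm and matrix, and neural lineages, with undifferentiated arrays as open and embryoid body arrays as filled circles and grey lines joining the group means. Pluripotency genes are at 1410 or more on every array, whereas the lineage genes lie between 9.55 and 339 in undifferentiated cells and at 955 or more in embryoid bodies.

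Regulators of pluripotency were lower in embryoid bodies. Of 26 tested factors 21 were called lower and none higher, with a median change of -0.78, and 12 of the 26 belong to the brightest decile of genes. NANOG, a homeobox factor of the pluripotency network, read 8130 and 8510 in undifferentiated cells and 3720 on both embryoid body arrays, 2.24-fold lower (log2 change -1.16 ± 0.07, adjusted p = 0.000128). SOX2, which pluripotent cells share with neural progenitors, was 1.4-fold lower, at 19500 and 18600 against 14500 and 12900 (log2 change -0.48 ± 0.09, adjusted p = 0.00622). LIN28A, an RNA-binding protein that blocks let-7 maturation, was 1.33-fold lower (24500 and 22400 against 17800 and 17400). Both of these modest calls ended under quantile normalisation (log2 changes of -0.22 and -0.15) and under cyclic loess (-0.12 and -0.03).

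Other members fell further. USP44, a deubiquitinase of the spindle checkpoint, went from 5010 and 4790 to 1450 and 1410, 3.43-fold lower. POLR3G, an RNA polymerase III subunit enriched in pluripotent cells, was 3.09-fold lower, VRTN 2.63-fold lower and ZFP42, also known as REX1, 2.45-fold lower (12300 and 11200 against 4680 and 4900). TERF1, a telomere repeat binding protein, was 1.93-fold lower. The methyltransferase DNMT3B gave 23400 and 21400 against 20000 and 18600 and was not called (log2 change -0.22 ± 0.08, adjusted p = 0.0691), with a change of 0.17 after cyclic loess and 0.05 after quantile normalisation. OTX2, shared by pluripotent and anterior neural cells, read 5890 and 3160 in undifferentiated cells against 5750 and 5890, and these arrays overlap between the stages.

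Surface and secreted markers of pluripotent cells were mixed, with 5 of 16 (31.2%) higher, 6 (37.5%) lower and a median of -0.17. Over all tested genes these shares were 29.2% and 27.1%, and 8 of the 16 belong to the brightest decile. THY1, the surface protein CD90, was the most reduced by p, at 6030 and 5010 against 1230 and 1170, 4.57-fold lower. FGF2, the growth factor that sustains human pluripotent cells, was 3.39-fold lower (2450 and 2510 against 676 and 794). The tetraspanin CD9 was 2-fold lower, a call lost with the mean of its probe sets (log2 change -0.72), and CLDN6, a tight junction claudin, was 1.66-fold lower. FGF4 was instead 3.72-fold higher and SFRP2, a secreted Wnt modulator, 1.95-fold higher.

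Nodal and TGF-beta ligands, receptors and mediators were mostly higher. Of 23 tested genes 17 were called higher and 4 lower, with a median change of 0.95, and 1 of the 23 passed the filter through embryoid body arrays alone. TGFB2, a TGF-beta ligand, read 117 and 95.5 in undifferentiated cells against 603 and 631 in embryoid bodies, 5.82-fold higher. LTBP1, which tethers latent TGF-beta in the matrix, was 2.6-fold higher. Both receptors named by p were higher, TGFBR3 by 3.24-fold and TGFBR1 by 2.02-fold. Among the mediators SMAD3 was 2.04-fold higher, SMAD2 1.27-fold lower and FOXH1, the partner of SMADs in Nodal signalling, 1.6-fold lower. The call of FOXH1 was lost without probe sets that can detect several transcripts (log2 change -0.18). The secreted target TGFBI, a matrix protein, went from 724 and 646 to 4790 and 4680, 6.92-fold higher (adjusted p = 1.98e-05).

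In the FGF signalling list 12 of 21 genes (57.1%) were higher and 7 (33.3%) lower, with a median of 0.45. Over all tested genes these shares were 29.2% and 27.1%. The filter admitted 2 of the 21, FGF8 and FGF17, through embryoid body arrays alone, so their direction was set by their being tested. The ligand FGF8, a signal of the primitive streak and midbrain boundary, lay far under the median in undifferentiated cells (2.69 and 4.37) and at 195 and 135 in embryoid bodies, at least 2.11-fold higher. FGF17, of the same subfamily, was at least 2.26-fold higher. Of the feedback genes, ETV4 fell at least 3.98-fold and SPRY4 2.43-fold, while the phosphatase DUSP4 rose 3.47-fold.

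Most tested endoderm regulators and plasma proteins of fetal liver and yolk sac were higher. Among 11 tested endoderm transcription factors 7 were called higher and 2 lower, with a median of 2.44, and 3 of the 11 passed the filter through embryoid body arrays alone. GATA6, a zinc finger factor of primitive and definitive endoderm, read 83.2 and 129 in undifferentiated cells against 2400 and 2750 in embryoid bodies, 24.8-fold higher (log2 change 4.63, adjusted p = 0.000119), with a change of 1.74 for the mean of its probe sets. SOX17 went from 120 and 70.8 to 955 and 1120, at least 11-fold higher, and FOXA2, a pioneer factor of gut endoderm, from 66.1 and 105 to 1000 and 1150, at least 11.7-fold. GATA4 was at least 5.07-fold higher and FOXA1 at least 1.93-fold. FOXA3 was 1.53-fold lower and the nuclear receptor NR5A2 at least 2.24-fold lower.

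Of 15 tested plasma protein genes 13 were called higher and 2 lower, with a median change of 4.97. The filter admitted 7 of the 15 through embryoid body arrays alone, so their direction was set by their being tested. AFP, the fetal counterpart of albumin, read 257 and 155 in undifferentiated cells against 9770 and 9550 in embryoid bodies, 48.4-fold higher (log2 change 5.60 ± 0.22, adjusted p = 3.96e-05). TTR, the thyroid hormone carrier transthyretin, was 40.7-fold higher (288 and 115 against 7760 and 7080). The fibrinogen chain FGB was hardly detected in undifferentiated cells, at 24 and 9.55, and read 3470 and 3630 in embryoid bodies, at least 46.2-fold higher, and its partner chain FGG was at least 19.5-fold higher. AHSG, or fetuin-A, was at least 9.02-fold higher, the prothrombin gene F2 at least 4.12-fold and complement component C5 at least 4.73-fold. Complement C3 went the other way, at 457 and 380 against 56.2 and 20.9, at least 4.07-fold lower. A1BG was also called lower, 1.86-fold (adjusted p = 0.0144), a call lost when either embryoid body array A or undifferentiated array A at 20 mM was left out (log2 changes of -0.65 and -0.81).

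The apolipoprotein and lipid secretion list had 10 of 13 genes higher and none lower, with a median of 4.83. Here 4 of the 13 passed the filter through embryoid body arrays alone. APOA2, a protein of high-density lipoprotein, went from 275 and 229 to 14100 and 13800, 55.6-fold higher (adjusted p = 7.96e-06). APOA1, its main partner, read 110 and 158 against 11700 and 11200, 87.1-fold higher. Without probe sets of the kinds that can detect several transcripts, the change of APOA1 was 2.61 and not called. APOB, the scaffold of very-low-density lipoprotein and chylomicrons, went from 58.9 and 67.6 to 5370 and 5130, at least 68.4-fold. MTTP, which loads lipid onto APOB, and APOA4 were each at least 9.77-fold higher, and APOC1, already at 1910 and 2000 in undifferentiated cells, was 3.35-fold higher.

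HNF1 is a homeobox factor of liver and yolk sac, and promoters of its targets hold a short palindrome with the half-site GTTAAT. Among RefSeq promoters (GRCh38.p14, the 250 bases before each start, either strand), 6.22% of 27305 hold that half-site. It is in 4 of the 13 tested plasma protein genes with a promoter sequence, AFP, FGB, FGA and F2. Promoters of AFP (chr4:73436071-73436220, plus strand) and FGB (chr4:154562830-154562979, plus strand) are shown because these genes were among the 15 with the largest increases, with the half-site in capitals.
AFP: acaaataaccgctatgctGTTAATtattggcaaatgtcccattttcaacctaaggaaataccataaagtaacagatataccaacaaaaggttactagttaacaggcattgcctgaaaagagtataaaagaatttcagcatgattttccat
FGB: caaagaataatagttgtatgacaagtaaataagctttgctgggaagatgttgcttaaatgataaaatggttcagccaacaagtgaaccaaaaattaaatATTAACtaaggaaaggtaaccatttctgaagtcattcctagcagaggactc
The match in AFP begins 132 bases before the start and that in FGB lies on the other strand, 51 bases before it. A match to these letters is a description of the sequence and no measure of binding.

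Of 17 tested mesoderm regulators 14 were called higher and 2 lower, with a median of 3.34. The filter admitted 7 of the 17 through embryoid body arrays alone, so their direction too was set by their being tested. PDGFRA, the PDGF receptor of mesenchyme, read 123 and 120 in undifferentiated cells against 3550 and 3160 in embryoid bodies, 27.5-fold higher (adjusted p = 1.81e-05). TWIST1, a basic helix-loop-helix factor of mesenchyme, went from 44.7 and 50.1 to 1550 on both arrays, at least 20.2-fold. HAND1, of lateral and extraembryonic mesoderm, was 7.67-fold higher, the homeobox gene MEIS2 10.7-fold and the zinc finger factor SNAI2 15.1-fold (87.1 and 105 against 1450 on both arrays). TWIST2, a relative of TWIST1, was 3.55-fold lower, at 407 and 389 against 107 and 117.

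Most tested genes of extracellular matrix and mesenchyme were higher. Among 25 tested collagen genes 23 were called higher and none lower, with a median of 1.98, and 2 of the 25 passed the filter through embryoid body arrays alone. COL1A2, a chain of type I collagen, already read 3630 and 3470 in undifferentiated cells and reached 15800 and 15500, 4.42-fold higher. COL2A1 of cartilage was 7-fold higher (832 and 977 against 6460 and 6170), COL9A2, which decorates the same fibrils, 6.38-fold and COL5A1 4.47-fold. The basement membrane chains COL4A5 and COL4A6 were 3.94-fold and 4.9-fold higher. COL9A3 gave 1230 and 776 against 550 and 692 and was not called (adjusted p = 0.066).

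Of 31 tested genes of mesenchymal matrix and cytoskeleton 24 were called higher and 4 lower, with a median of 2.01. The filter admitted 3 of the 31 through embryoid body arrays alone and 1 through undifferentiated arrays alone. POSTN, the matrix protein periostin, went from 115 and 129 to 5890 and 5750, 47.9-fold higher, and HAPLN1, which links hyaluronan to proteoglycans, from 182 and 186 to 5890 and 6170, 32.7-fold. TNC, or tenascin-C, was 20.7-fold higher. ZEB1, a repressor of epithelial genes, was 13.3-fold higher and its relative ZEB2 at least 11.7-fold. The matricellular genes CCN1 and CCN2 went the other way, 2.43-fold and 2.72-fold lower (CCN2 from 4270 and 4170 to 1580 and 1510).

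Laminins and integrins, which build and bind basement membranes, had 17 of 22 genes higher, none lower and a median of 1.21. Of the 22, 3 passed the filter through embryoid body arrays alone. LAMA1 and LAMB1, chains of the first embryonic laminin, were 3.2-fold and 3.67-fold higher, and LAMA4 at least 6.84-fold. The fibronectin receptor chain ITGA5 was 2.57-fold higher, ITGB8 5.19-fold and ITGA8 at least 6.84-fold. LAMC3 read 170 and 251 against 166 and 91.2 and was not called. Among proteases and their inhibitors 13 of 18 genes were higher, 1 was lower and the median was 1.01. The filter admitted 1 of the 18, MMP1, through embryoid body arrays alone and 1 through undifferentiated arrays alone. MMP1, the interstitial collagenase, lay at 12.9 and 12.3 in undifferentiated cells against 490 and 437 in embryoid bodies, at least 6.03-fold higher. The gelatinase MMP2 was 3.76-fold higher, a call lost with the mean of its probe sets (log2 change 0.74), the plasminogen activator PLAT 4.32-fold, the versican-cleaving ADAMTS1 3.85-fold, and the inhibitors TIMP1 and TIMP2 2.02-fold and 2.11-fold.

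**Figure D3:**
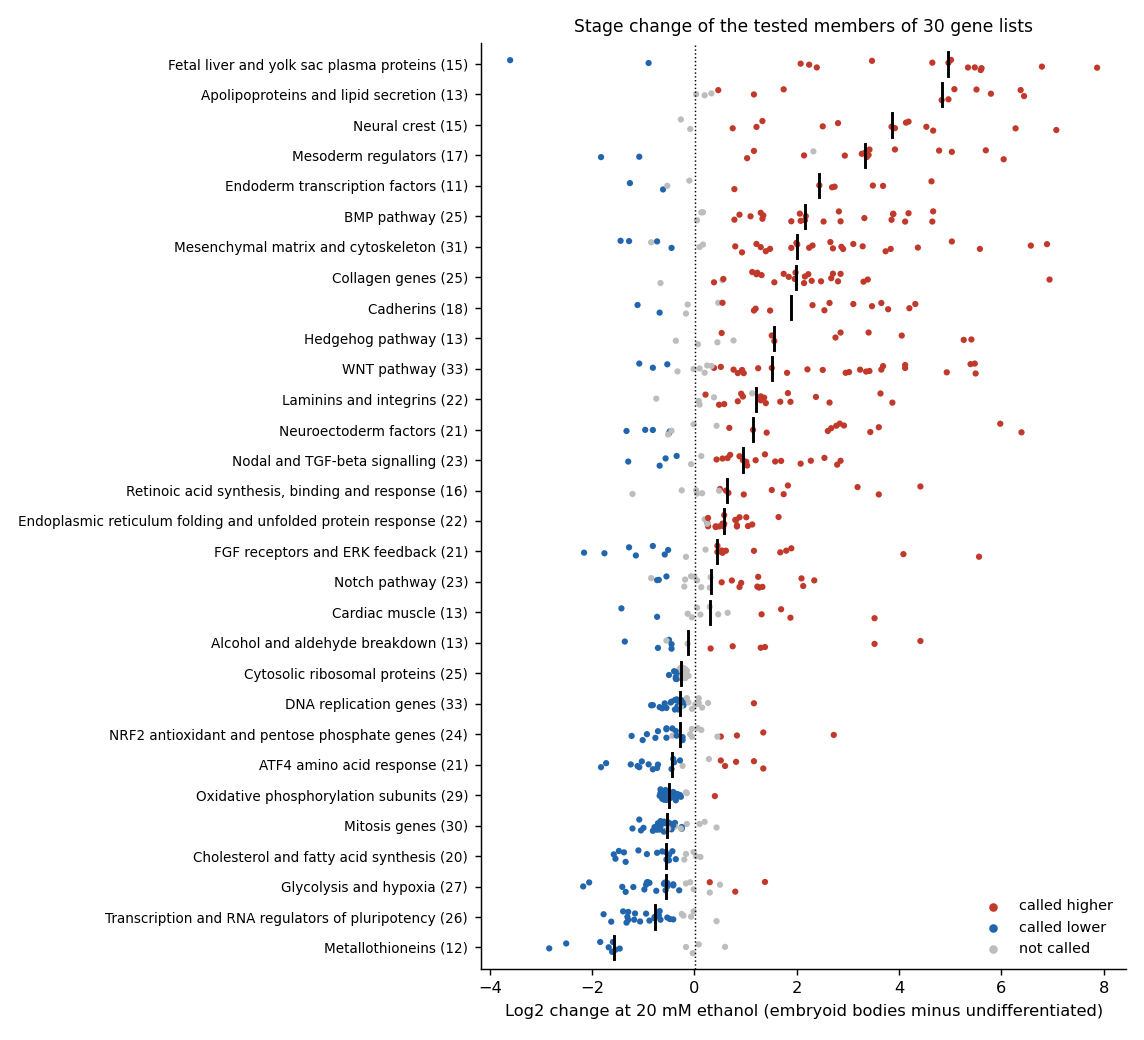
Log2 change (embryoid bodies minus undifferentiated cells at 20 mM ethanol) of each tested member of 30 gene lists, ordered by median, with genes called higher in red, lower in blue and not called in grey. Black bars are list medians, the dotted line is the median of all tested genes at 0.02, and numbers in brackets count tested members. Plasma protein and apolipoprotein genes reach the highest medians, near 5, while metallothioneins and pluripotency factors have the lowest.

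Neural genes were more often higher than all tested genes, of which 29.2% were higher and 27.1% lower, and their lower shares were near that 27.1%. Among 21 tested neuroectoderm factors 12 (57.1%) were called higher and 5 (23.8%) lower, with a median of 1.15. The filter admitted 2 of the 21 through embryoid body arrays alone and 1 through undifferentiated arrays alone. NR2F1, a nuclear receptor that patterns the cortex and also marks mesenchyme, read 47.9 and 51.3 in undifferentiated cells and 4170 on both embryoid body arrays, at least 54.3-fold higher (adjusted p = 4.89e-06). ZIC1, a zinc finger factor of dorsal neural tissue, went from 107 and 67.6 to 5370 on both arrays, at least 60.3-fold (log2 change 5.98, and 2.81 for the mean of its probe sets). PAX6 was 12.2-fold higher (204 and 155 against 2140 and 2190), and the forebrain factors EMX2, FEZF2 and LHX2 were 10.8-fold, 6.84-fold and 6.1-fold higher. ZIC5 was 1.91-fold lower by the bound and SFRP1, a secreted Wnt antagonist made by undifferentiated stem cells, 1.76-fold lower, the latter not called with the mean of its probe sets (log2 change -0.61).

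Neuronal genes had 11 of 23 (47.8%) higher, 6 (26.1%) lower and a median of 0.71, and 3 of the 23 passed the filter through embryoid body arrays alone. MAP2, a dendritic microtubule protein, went from 339 and 316 to 2880 and 2950, 8.91-fold higher (adjusted p = 1.81e-05). The adhesion molecule NCAM1 was 6.03-fold higher, GAD1, which makes the transmitter GABA, 23.4-fold (162 and 85.1 against 2690 and 2820), and the glutamate transporter SLC17A6 at least 6.24-fold. STMN2, a growth cone protein, was 2.04-fold higher. RBFOX3, whose product is the antigen NeuN of mature neurons, was 2.51-fold lower and CRMP1 2.79-fold lower.

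Neural crest genes were higher in 13 of 15 cases and lower in none, with a median of 3.85, and 4 of the 15 passed the filter through embryoid body arrays alone. PAX3, of dorsal neural tube and crest, read 263 and 112 against 2510 and 2450, 14.5-fold higher. MSX1 and MSX2, homeobox genes of the neural plate border that respond to BMP, were 25.4-fold and 18.2-fold higher, and the log2 change of MSX1, 4.67, was 1.61 without probe sets that can detect several transcripts. SOX9 and SOX10, crest and glial regulators, were 2.32-fold and 2.51-fold higher, and the call of SOX10 was lost with the mean of its probe sets (log2 change 1.04). The crest receptor EDNRB gave 3980 and 4370 against 3980 and 3890 and was not called, while another of its probe sets changed by 1.74.

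HOX and CDX genes, which give positional identity along the body axis, were mostly under the filter: 11 of their 42 genes were tested, 4 were called higher and 1 lower. HOXB3 read 55 and 38.9 in undifferentiated cells against 355 and 339 in embryoid bodies, at least 4.52-fold higher, and HOXB2 was at least 3.02-fold higher. HOXC4 and HOXC6 passed by small margins, and both calls were lost without any 1 of the 4 arrays at 20 mM, with changes of 1.01 to 1.11 for HOXC4 and 2.97 to 3.14 for HOXC6. CDX4 was called lower, at 126 and 178 against 14.5 and 12, at least 1.46-fold. The median of the 11 was 1.06, and 4 of them passed the filter through embryoid body arrays alone.

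Cardiac muscle genes were mixed. Among 13 tested genes 4 (30.8%) were called higher and 2 (15.4%) lower, with a median of 0.30. The share that was higher is near the 29.2% of all tested genes, and 2 of the 13 passed the filter through embryoid body arrays alone. MYL7, the atrial light chain, was at least 2.82-fold higher, at 28.2 and 12.6 against 219 and 214, and TNNC1 and TTN were 3.67-fold and 3.24-fold higher. TNNI3, the cardiac inhibitory troponin, was 2.69-fold lower, from 1050 and 977 to 339 and 417, and the tropomyosin TPM1 1.66-fold lower, a call lost with the mean of its probe sets (log2 change -0.67).

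Among signalling pathways that pattern the embryo, most tested genes of the BMP, Wnt and Hedgehog lists were higher, and 47.8% of the Notch list. In these lists 3, 5, 3 and 0 genes passed the filter through embryoid body arrays alone. BMP ligands, receptors, antagonists and targets had 22 of 25 genes higher and none lower, with a median of 2.16. The ligand BMP5 was at least 9.77-fold higher (55 and 46.8 against 708 and 794) and the receptor BMPR1B 4.52-fold. GREM1, a secreted antagonist, went from 209 on both arrays to 5500 and 5010, 25.1-fold higher (adjusted p = 7.67e-06), and BAMBI, a decoy receptor, from 1550 and 1700 to 9330 on both arrays, 5.75-fold. SMAD9, a mediator of BMP signals, was 10-fold higher.

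The Wnt list had 24 of 33 genes higher, 3 lower and a median of 1.51. RSPO3, a secreted amplifier of Wnt signals, read 316 and 339 against 10200 and 9770, 30.5-fold higher (adjusted p = 5.28e-06). Its receptor LGR5 went from 41.7 and 43.7 to 1910 on both arrays, at least 24.8-fold. The Frizzled receptors FZD10, FZD1 and FZD4 were 17.4-fold, 10.2-fold and 3.51-fold higher. TCF7L1, the repressive TCF of pluripotent cells, was 2.11-fold lower (3160 and 3720 against 1620 on both arrays).

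Hedgehog components had 9 of 13 genes higher, none lower and a median of 1.56. PTCH1, at once the receptor and a target of the pathway, went from 1000 on both arrays to 6760 on both arrays, 6.76-fold higher. HHIP, a decoy receptor and target, was at least 19.5-fold higher (36.3 and 33.9 against 1480 and 1510). The coreceptors BOC, GAS1 and CDON were 16.6-fold, 7.24-fold and 2.95-fold higher and the effector GLI3 2.85-fold. In the Notch list 11 of 23 genes were higher, 3 were lower and the median was 0.32. The ligands DLL1 and JAG1 were 5.07-fold and 2.34-fold higher, the receptor NOTCH2 1.88-fold, and the targets HEY1 and HES4 4.37-fold and 4.27-fold, while NRARP, a feedback inhibitor, was 1.46-fold lower. DLL1 was not called with the mean of its probe sets (log2 change 1.45), nor was NOTCH2 with its most variable probe set (1.11).

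Retinoic acid is made from retinol by retinol dehydrogenases and then retinaldehyde dehydrogenases, the latter members of the aldehyde dehydrogenase family. Of 16 tested genes of its synthesis, binding and response 10 were higher and none lower, with a median of 0.64, and 3 of the 16 passed the filter through embryoid body arrays alone. The retinol dehydrogenase RDH10 was 3.35-fold higher. The retinaldehyde dehydrogenase ALDH1A1 went from 52.5 and 63.1 to 1320 and 1150, at least 16-fold higher (adjusted p = 1.81e-05), and ALDH1A2, the main embryonic form, from 12.3 and 8.71 to 138 and 115, at least 1.64-fold. The receptor RARB, itself a target of retinoic acid, was at least 3.47-fold higher, the degrading enzyme CYP26B1 at least 4.27-fold and the retinol transporter STRA6 2.85-fold. CYP26A1, the degrading enzyme of early embryos, read 3310 and 977 in undifferentiated cells against 813 and 741 in embryoid bodies and was not called (adjusted p = 0.0984). Its undifferentiated replicates lie far apart, and without undifferentiated array B at 20 mM its change was -2.09 and called (adjusted p = 0.00103).

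Of 13 tested ethanol and aldehyde breakdown genes 6 (46.2%) were higher and 5 (38.5%) lower, with a median of -0.13. Over all tested genes these shares were 29.2% and 27.1%. Of the 13, 4 belong to the brightest decile, where 56.0% were lower, and 1 passed the filter through embryoid body arrays alone. ADH5, the alcohol dehydrogenase that also handles formaldehyde, read 9770 on both undifferentiated arrays and 7240 and 6610 in embryoid bodies, 1.41-fold lower (log2 change -0.50 ± 0.08, adjusted p = 0.00373). ALDH2, the mitochondrial enzyme that clears most acetaldehyde, gave 1910 and 2290 against 2630 and 2570, 1.24-fold higher (log2 change 0.32 ± 0.10, adjusted p = 0.0401). That call held without undifferentiated array B at 20 mM and was lost without each of the other 7 arrays (adjusted p 0.0608 to 0.138), and median centring gave a change of -0.10. ALDH2 has 1 probe set, so its change stayed at 0.32 in the fit to means of probe sets, where it was not called. CAT, the peroxisomal catalase, went from 81.3 and 72.4 to 912 and 851, at least 11.3-fold higher (log2 change 3.52 ± 0.33, adjusted p = 0.000519). ALDH1B1, a mitochondrial relative of ALDH2, was 2.57-fold lower (1350 and 1290 against 513 on both arrays) and ALDH9A1 1.64-fold lower. ALDH5A1, of GABA breakdown, was 2.6-fold higher and ALDH18A1, of proline synthesis, 1.68-fold higher. The list median was 0.32 without the low-signal filter and also without probe sets that can detect several transcripts.

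**Figure D4:**
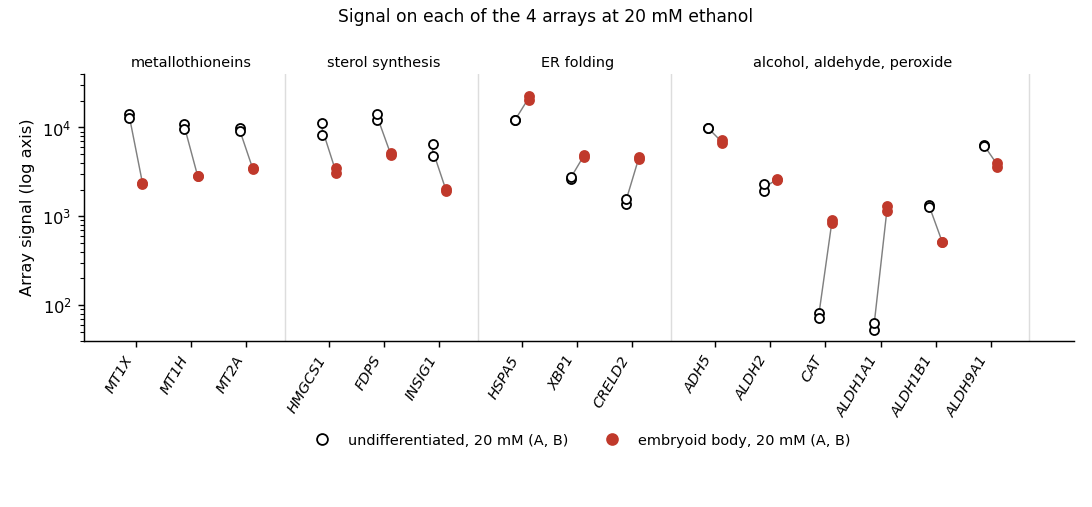
Signals on each of the 4 arrays at 20 mM ethanol (log axis) of 15 genes of metal binding, sterol synthesis, endoplasmic reticulum (ER) folding, and alcohol, aldehyde and peroxide breakdown, with undifferentiated arrays as open and embryoid body arrays as filled circles. Metallothionein and sterol genes are lower in embryoid bodies, ER folding genes are higher, and the last group holds the large differences of CAT and ALDH1A1 beside the small one of ALDH2.

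Metallothioneins, small cysteine-rich proteins that bind zinc and copper, were lower as a family. Of 12 tested genes of the list 8 were called lower and none higher, with a median of -1.57. MT1X went from 14100 and 12900 to 2400 and 2340, 5.69-fold lower (log2 change -2.51 ± 0.13, adjusted p = 8.77e-05). MT1H was 3.59-fold lower (11000 and 9550 against 2820 and 2880), MT1E 3.2-fold, MT1G 3.05-fold, MT1F 3.02-fold and MT2A 2.75-fold (9770 and 9120 against 3470 and 3390). These near-identical genes share probe sequence, and every one of the 6 was measured by a probe set of the cross-hybridising kind, so the fall of one cannot be assigned apart from the others. Without such probe sets the list median was -0.03. MT3, the brain form, gave 83.2 and 74.1 against 117 and 120 and SLC30A1, the zinc exporter, 2510 and 3240 against 3020 on both arrays, and neither was called.

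Metallothionein promoters are activated through metal response elements with the core TGCNCNC, bound by the zinc sensor MTF1. That short core is common: 48.4% of the 27305 promoters hold it at least once in the 250 bases before the start on either strand, and 5.74% hold it at least 3 times, overlapping matches included. Of the 6 list members with a RefSeq promoter sequence 5 hold it, and 4 hold it at least 3 times, MT2A with 7 matches, MT1H with 8, MT1X with 4 and MT4 with 5. The last 180 bases before the start are shown, core in capitals, for the 3 of these whose cross-hybridising probe sets were called lower. They are MT2A (chr16:56608404-56608583), MT1X (chr16:56682290-56682469) and MT1H (chr16:56669634-56669813), all on the plus strand of GRCh38.p14. Which of these genes fell cannot be told from such probe sets.
MT2A: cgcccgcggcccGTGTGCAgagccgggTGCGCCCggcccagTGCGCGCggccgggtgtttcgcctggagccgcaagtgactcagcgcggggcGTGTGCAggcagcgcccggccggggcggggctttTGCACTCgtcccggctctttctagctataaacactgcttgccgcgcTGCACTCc
MT1X: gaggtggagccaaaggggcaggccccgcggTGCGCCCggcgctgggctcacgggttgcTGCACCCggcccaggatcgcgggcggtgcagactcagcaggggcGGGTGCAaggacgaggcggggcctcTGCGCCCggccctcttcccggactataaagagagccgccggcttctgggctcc
MT1H: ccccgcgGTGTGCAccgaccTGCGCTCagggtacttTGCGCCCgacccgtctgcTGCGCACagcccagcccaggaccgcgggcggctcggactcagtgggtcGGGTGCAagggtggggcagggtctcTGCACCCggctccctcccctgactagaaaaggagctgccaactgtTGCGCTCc
In the windows shown MT2A has 6 matches, MT1X 4 and MT1H 7, spread over the window and in both orientations, the nearest beginning 8 bases before the start in MT2A and MT1H and 53 in MT1X.

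Genes of ER protein folding went the opposite way, with 20 of 22 called higher, none lower and a median of 0.57, although 9 of the 22 belong to the brightest decile of genes, of which 16.4% were higher. HSPA5, the ER chaperone BiP, read 12300 on both undifferentiated arrays and 22400 and 20400 in embryoid bodies, 1.74-fold higher (log2 change 0.80 ± 0.08, adjusted p = 0.00054). CRELD2, a disulphide isomerase-like protein induced by ER load, was 3.13-fold higher (1380 and 1550 against 4680 and 4470). The co-chaperones DNAJB11 and DNAJC3 were 2.19-fold and 1.78-fold higher. XBP1, a transcription factor of the unfolded protein response, was 1.78-fold higher (2630 and 2750 against 4900 and 4680) and SEL1L, of ER-associated degradation, 2.02-fold. Median centring reduced the list median to 0.16 and cyclic loess raised it to 0.72.

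The ER stress response element joins a CCAAT box and a CCACG box at a fixed spacing, here with 9 bases of any kind between them. It is rare, in 22 of 27305 promoters (0.0806%) on either strand, and 6 of the 21 list members with a promoter sequence hold it: HSPA5, HSP90B1, CALR, CANX, XBP1 and CRELD2. The 130 bases before the start of HSPA5 (chr9:125241344-125241473, minus strand), XBP1 (chr22:28800570-28800699, minus strand) and CRELD2 (chr22:49918504-49918633, plus strand) are shown with the element in capitals.
HSPA5: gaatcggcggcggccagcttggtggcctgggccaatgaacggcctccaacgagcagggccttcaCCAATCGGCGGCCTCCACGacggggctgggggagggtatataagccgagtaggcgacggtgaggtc
XBP1: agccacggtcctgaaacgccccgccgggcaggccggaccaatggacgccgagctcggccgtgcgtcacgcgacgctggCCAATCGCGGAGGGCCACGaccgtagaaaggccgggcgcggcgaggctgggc
CRELD2: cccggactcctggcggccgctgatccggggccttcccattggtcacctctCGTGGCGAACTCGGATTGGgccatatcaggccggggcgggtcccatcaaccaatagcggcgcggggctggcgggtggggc
In HSPA5 and XBP1 the element reads in the direction of the gene, from 66 and 52 bases before the start, and in CRELD2 in reverse, 80 bases before it.

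Of 19 heat shock chaperones of the cytosol and mitochondria 10 (52.6%) were called lower and 1 higher, with a median of -0.33. Of the 19, 8 belong to the brightest decile of genes, where 56.0% were lower, so the share of the list is near that of abundant genes. HSPA2, an HSP70 abundant in testis, was 5.62-fold lower (4170 and 3160 against 603 and 692). HSPE1, the mitochondrial co-chaperonin, was 1.84-fold lower, HSPB1 1.74-fold, DNAJB1 1.68-fold and HSPA4 1.6-fold.

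Cholesterol and fatty acid synthesis genes were lower in 15 of 20 cases and higher in none, with a median of -0.56, and 7 of the 20 belong to the brightest decile. HMGCS1, which makes HMG-CoA for sterol synthesis, read 8130 and 11200 in undifferentiated cells against 3090 and 3470 in embryoid bodies, 2.92-fold lower (log2 change -1.54 ± 0.16, adjusted p = 0.000677). FDPS, the farnesyl diphosphate synthase, was 2.6-fold lower (12000 and 14100 against 5130 and 4900), the sterol sensor partner INSIG1 2.79-fold lower (4790 and 6460 against 2040 and 1950) and ACACA, of fatty acid synthesis, 1.66-fold lower. IDI1 was 2.99-fold lower on the probe set used, while without probe sets that can detect several transcripts its change was 1.48, and with the mean of its probe sets it was -0.34 and not called. The sterol regulatory element TCACCCCAC, searched on either strand, is in 0.348% of promoters and in 1 of the 18 list members with a sequence, SREBF2. Searches of other lists with HNF4 (CAAAGTCCA, in 0.293% of promoters) and octamer (ATGCAAAT, in 1.66%) letters found them in 0 of 10 apolipoprotein list promoters and 0 of 19 of pluripotency factors, which says only that these letters are not in these windows.

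Most tested genes of glycolysis and oxidative phosphorylation were lower. Glycolysis and hypoxia genes had 19 of 27 lower, 3 higher and a median of -0.56, and 10 of the 27 belong to the brightest decile. The aldolase ALDOC was 4.52-fold lower (2090 and 2240 against 550 and 417), the hexokinases HK2 and HK1 2.54-fold and 2.29-fold lower, GPI 1.93-fold and the hypoxia-induced ANKRD37 4.17-fold. VEGFA, the angiogenic factor also induced by hypoxia, was 2.6-fold higher. Subunits of oxidative phosphorylation had 26 of 29 lower and 1 higher with a median of -0.50, and 21 of the 29 belong to the brightest decile, of which 56.0% were lower. COX8A was 1.58-fold lower, NDUFV2 1.6-fold, CYC1 1.51-fold and UQCRB 1.45-fold, the last not called with the mean of its probe sets (log2 change -0.20). Ribosomal protein genes, all 25 in the brightest decile, had 10 lower and none higher with a median of -0.27, which became 0.14 after cyclic loess.

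Amino acid response genes driven by the transcription factor ATF4 had 14 of 21 lower, 5 higher and a median of -0.45, and 7 of the 21 belong to the brightest decile. MTHFD2, of mitochondrial folate metabolism, was 2.37-fold lower (11500 and 13200 against 5130 and 5250), the serine synthesis enzyme PHGDH 2.11-fold, ASNS 1.86-fold, SHMT2 1.76-fold and the transcription factor CEBPB 2.16-fold. With the mean of its probe sets ASNS changed by -0.22 and was not called. The amino acid transporters SLC7A11 and SLC7A5 were instead 2.54-fold and 1.76-fold higher, SLC7A5 not after median centring (log2 change 0.40, not called). In the NRF2 antioxidant and pentose phosphate list 13 of 24 genes (54.2%) were lower and 4 higher, with a median of -0.29. This share, too, is near that of the brightest decile (56.0%), to which 11 of the 24 belong. The pentose phosphate enzymes TALDO1 and TKT were 2.02-fold and 1.91-fold lower, SRXN1 2.34-fold, GCLM 1.7-fold and GPX1 1.64-fold, while the digestive glutathione peroxidase GPX2 was at least 5.5-fold higher. GCLM was not called with its most variable probe set (log2 change -0.35).

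Many genes of proliferation were lower. Of 30 tested mitosis genes 23 were called lower and none higher, with a median of -0.53, and 13 of the 30 belong to the brightest decile. AURKA, a spindle kinase, read 6030 and 6170 against 2630 on both embryoid body arrays, 2.32-fold lower, and BIRC5, or survivin, was 2.11-fold lower, PLK1 2.07-fold, BUB1 2-fold, UBE2C 1.76-fold and BUB3 1.6-fold. Without probe sets that can detect several transcripts AURKA changed by -0.25 and was not called, and with the mean of its probe sets BUB1 changed by -0.55 and was not called. For CENPF the values were 2570 and 3240 against 3980 and 3800 (adjusted p = 0.0638). Replication genes had 20 of 33 (60.6%) lower, 1 higher and a median of -0.28, and 12 of the 33 belong to the brightest decile. GINS1 was 1.76-fold lower, ORC1 1.8-fold, CDC6 1.55-fold and PRIM1 1.5-fold, and POLE, a catalytic polymerase subunit, was 2.24-fold higher (347 and 316 against 617 and 891).

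Of 23 simple epithelium genes 8 (34.8%) were lower and 5 (21.7%) higher, with a median of -0.17, shares not far from those of all tested genes (27.1% and 29.2%). ESRP1, a splicing regulator of epithelial and pluripotent cells, was 2.48-fold lower (4370 and 4790 against 2000 and 1700), the claudin CLDN10 2.26-fold, RAB25 2.29-fold and the keratin KRT7 3.09-fold, whereas KRT19 and KRT8 were 1.82-fold and 1.66-fold higher. The calls of CLDN10 and KRT19 were lost with the mean of their probe sets (log2 changes of -1.48 and 0.46), that of KRT7 without probe sets that can detect several transcripts (-0.35) and that of KRT8 after median centring (0.32). Cadherins had 13 of 18 higher, 2 lower and a median of 1.89, and 2 of the 18 passed the filter through embryoid body arrays alone. CDH2, or N-cadherin, went from 2510 and 3020 to 13800 and 13500, 4.95-fold higher, CDH6 from 240 and 251 to 4790 and 5010, 20-fold, and CDH11, of mesenchyme, from 692 and 891 to 6760 on both arrays, 8.61-fold. CDH3, or P-cadherin, was 2.16-fold lower.

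Chromatin genes were mixed. DNA methylation writers and erasers had 5 of 19 (26.3%) higher and 6 (31.6%) lower, with a median of -0.02. These shares are near those of all tested genes (29.2% and 27.1%). APOBEC3B, a cytidine deaminase, was 4.57-fold lower (2140 and 1480 against 347 and 437), and the oxidase TET2 was 2.79-fold, GADD45A 1.91-fold and the maintenance cofactor UHRF1 1.51-fold higher, UHRF1 not called after median centring (log2 change 0.18). Polycomb genes had 8 of 16 lower, 3 higher and a median of -0.25. PHC1, a subunit of the first Polycomb complex and typical of pluripotent cells, went from 11700 and 14100 to 3800 and 3980, 3.31-fold lower, and CBX7 was 2.32-fold lower, while the methyltransferase EZH2 was 2.09-fold and RING1 2.02-fold higher. Imprinted genes, expressed from one parental copy, had 11 of 16 higher, 3 lower and a median of 1.04. Of these 16, 2 passed the filter through embryoid body arrays alone. PLAGL1 read 151 and 155 against 3720 and 3980, 25.1-fold higher, DLK1, a Notch-related growth regulator, was 5.56-fold higher (5010 and 3980 against 25700 and 24000), NNAT at least 25.7-fold and MEST 2.09-fold. KCNQ1 was at least 2.34-fold lower, a call lost with the mean of its probe sets (log2 change -1.25).

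Host transcripts of microRNAs were looked at after their values had been seen. The array measures the long host RNA and not the mature microRNA. Of 36 host genes named as such with a probe set of their own 16 were tested, 8 were called higher and none lower, with a median of 0.32. Of all tested genes 29.2% were higher and 27.1% lower. MIR100HG read 42.7 and 77.6 in undifferentiated cells against 1580 and 1620 in embryoid bodies, at least 20.4-fold higher (adjusted p = 0.00014). DNM3OS, a noncoding transcript of the mesoderm regulator list, is not among those 36 by its name. It went from 11 and 11.5 to 759 and 724, at least 9.66-fold. MIR9-1HG was 2.88-fold higher, at 447 and 437 against 1350 and 1200. The RefSeq intervals of these hosts contain the following mature microRNAs (GRCh38.p14), shown because they let a reader see which seeds, bases 2 to 8 in capitals, belong to the hosts that were higher.
let-7a-5p: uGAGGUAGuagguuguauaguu
miR-100-5p: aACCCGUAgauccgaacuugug
miR-125b-5p: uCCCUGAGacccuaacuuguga
miR-214-3p: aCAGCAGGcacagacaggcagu
miR-199a-3p: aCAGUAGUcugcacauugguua
miR-9-5p: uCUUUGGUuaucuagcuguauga
The first 3 lie in MIR100HG, the next pair in DNM3OS and the last in MIR9-1HG, and the 6 seeds differ from one another. LIN28A, whose protein blocks let-7 processing, was called 1.33-fold lower, a call that ended under quantile normalisation and under cyclic loess. A relation between LIN28A and these hosts was not tested.

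The same stage comparison without ethanol, in 4 arrays that share none with it, gave closely similar changes. At 0 mM ethanol 7427 genes (52.8%) were called, 3949 higher (28.0%) and 3478 lower (24.7%), and 6204 were called at both doses in the same direction, which is 78.3% of the calls at 20 mM (56.3% of genes) and 83.5% of those at 0 mM. Stage changes at the doses correlated across the 14079 genes (Pearson r 0.91, Spearman rho 0.87), where genes are not independent replicates, and 85.9% of genes differed by under 0.5 on the log2 scale. Another 1703 genes were called at 20 mM alone, of which 1487 had the same sign at 0 mM, and 16 were called in opposite directions. Being called at one dose alone does not show a difference between doses.

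The difference between the stage effects was tested directly, and no gene passed. By limma 0 of 14079 genes (0.0%) had an adjusted p under 0.05, the smallest was 0.122, and 1828 genes had an unadjusted p under 0.05. The 5 genes with the smallest p in each direction are given as values. The stage change of AHSG was 3.47 at 20 mM and 2.18 at 0 mM, a difference of 1.30 ± 0.10, with embryoid body signals of 676 and 708 against 219 and 234. CST2 differed by 1.71 ± 0.16 (embryoid body signals 6310 and 5370 against 3020 and 3310) and DNM3OS by 1.15 ± 0.11 (759 and 724 against 331 and 363). LINC01741 had a stage change of 0.65 at 20 mM and -0.53 at 0 mM, and SNRK-AS1 changes of 2.44 and 1.08 from signals near or under the median.

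In the other direction CDX4, a caudal-type homeobox gene, changed by -3.50 at 20 mM and -0.95 at 0 mM. Its embryoid body signals of 14.5 and 12 against 85.1 and 64.6 lay under or near the array medians. LINC02525 had stage changes of -3.94 and 0.20, with embryoid body signals of 9.55 and 5.5 against 83.2 and 93.3, both sets under or near the medians. PPP1R18, a phosphatase regulatory subunit, read 708 and 692 against 912 on both arrays in embryoid bodies and 631 and 589 against 389 and 380 in undifferentiated cells, a difference of -1.05 ± 0.10. LINC01315 differed by -0.91 ± 0.11 and ZPLD1 by -2.38 ± 0.29. Embryoid body signals of ZPLD1 were 372 and 269 at 20 mM against 355 and 363 at 0 mM. Its undifferentiated signals, 25.7 and 33.1 against 5.75 and 7.08, all lay under the array medians, where a fold is imprecise. Among genes reported at both doses whatever their result, NANOG had stage changes of -1.16 at 20 mM and -0.81 at 0 mM (adjusted p of the difference 0.306), SOX2 of -0.48 and 0.00 (0.298), AFP of 5.60 and 5.22 (0.628), ADH5 of -0.50 and -0.05 (0.295) and CAT of 3.52 and 3.64 (0.936).

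**Figure D5:**
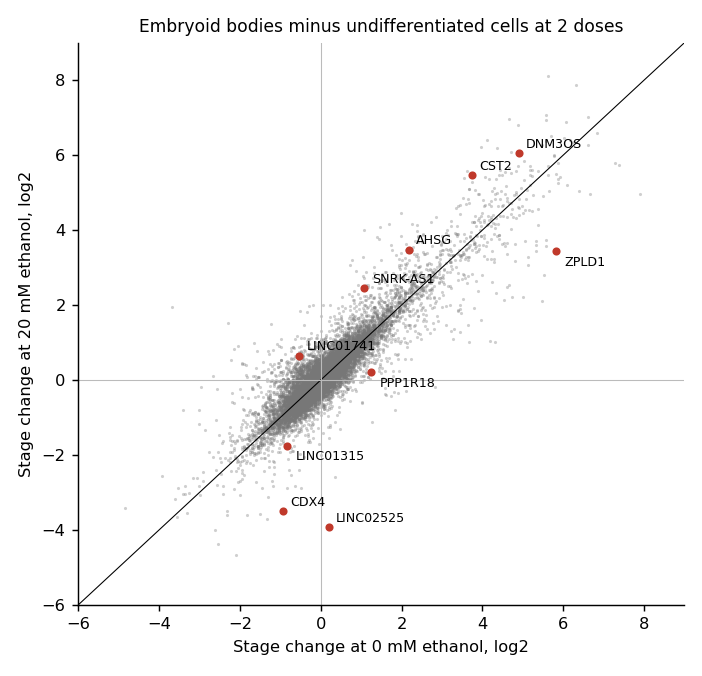
Stage change (embryoid bodies minus undifferentiated cells, log2) of each tested gene at 0 mM ethanol (x axis) and 20 mM ethanol (y axis), with the line of equal change and, in red, the 5 genes in each direction with the smallest p for the difference. Genes cluster along the line (Pearson r 0.91), and the labelled genes, none of which passed the test, lie off it, LINC02525 the furthest.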

How the data were processed

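The deposited values are log10 array signals: their range and a trimmed mean near 500 on every array are those of globally scaled signals, although RMA is the tool in the submitters' processing notes, with no version. Per the labels RNA was total RNA labelled with biotin; what else the authors did is not given in the sources used here. Values were converted to log2 by a constant, since the plan assumed log2, with no further normalisation. Of 54675 probe sets 41091 named 1 gene. Each gene was represented by its probe set with the highest mean over 8 arrays and tested when at least 2 arrays lay above their median. limma 3.58.1 in R 4.3.3 fitted 1 mean per group to all 8 arrays, with 4 residual and 1.81 prior degrees of freedom and Benjamini-Hochberg adjustment at 0.05. On simulated data for 20 mM over 14079 genes, 26.8% of changes of 0.5 (log2) and 62.5% of 1 were recovered. For changes of 2 and 4 the rates were 88% and 96.7%, and 5.75% of calls were false. How far these rates hold for the measured arrays, where 56.3% of genes were called at 20 mM, was not tested. The members and the 53 gene lists (933 tested genes) were chosen with earlier results of these data known. Named genes are the 15 highest and 15 lowest, up to 6 list members with the smallest p and 2 of opposite sign, the 5 smallest p of the dose difference in each direction, and SOX2, NANOG, LIN28A, DNMT3B, AFP, ADH5, ALDH2 and CAT; genes used to check the cell line are tested and not named. Members whose direction depended on the probe set were mostly left out of the text. Like-lettered arrays did not deviate together (r -0.03 to 0.05), so letters were not used as pairs. Alternatives were other filters, probe set choices, scalings, variance models, a replicate block and leaving out each array.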

Additional observations from a re-analysis of the deposited data

Results flagged for a closer look

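In the noncoding transcript LINC01741 both embryoid body arrays lay above both undifferentiated arrays at 20 mM ethanol (132 and 135 against 85.1 and 85.1) and below them at 0 mM (79.4 and 85.1 against 112 and 126). The difference of its stage changes was 1.18 on the log2 scale and did not pass the test of the difference itself (limma adjusted p = 0.122). MT3 showed the same pattern, at 117 and 120 against 83.2 and 74.1 with ethanol and 105 and 60.3 against 117 and 135 without, with a difference of 1.26 (limma adjusted p = 0.315). MTF1, the zinc sensor, also showed opposite array orders, at 468 and 501 against 550 and 537 with ethanol and 589 and 646 against 525 and 513 without, with a difference of -0.42 (limma adjusted p = 0.298).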

How the results depend on the processing

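Counts of calls depended most on scaling and on the size of change asked for. Median centring gave 2269 genes higher and 6796 lower at 20 mM (25.0% of calls higher against 51.9%), shifting the median of all genes by -0.42, and quantile normalisation gave 45.1% higher with a shift of -0.11. A test against a 2-fold change left 775 higher, 151 lower and 807 called at 0 mM. The dose difference, with 0 calls by limma, had 13 with the filter at the 75th percentile, 31 with a trended robust variance and 10 with values floored at the array median. Leaving out 1 array gave 3209 to 4094 genes higher, 2873 to 3633 lower, 5344 to 7672 at 0 mM and 0 to 10 for the difference, the 10 without undifferentiated array B at 20 mM and 5 without undifferentiated array A at 0 mM. With a replicate block the counts were 4064 higher, 3723 lower, 7210 at 0 mM and 0 for the difference; like letters did not deviate together, so this is no sign of pairing.

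Of 39 list medians 32 kept their sign under every alternative that gave a value; the HOX list had none at the 75th percentile filter. Medians turned to 0.18 (cyclic loess) and 0.0031 (quantile) for pluripotent surface markers, -0.39 (75th percentile filter) and -0.12 (median centring) for cardiac genes, -0.10 (median centring) for Notch, 0.14 (loess) for ribosomal proteins, and 0.32 both without the filter and without _x_at and _s_at probe sets for alcohol and aldehyde enzymes. For DNA methylation genes they were 0.15 with loess, 0.15 with the mean of probe sets, 0.39 with the most variable probe set and 0.048 with quantile, and for Polycomb genes 0.031, 0.12 and 0.058 with the mean, the most variable probe set and without _x_at and _s_at sets. Among genes, EDNRB gave 0.11 (loess), 0.054 (quantile), 0.63 (mean of probe sets) and 1.74 (most variable probe set, and without _x_at and _s_at sets), IDI1 1.48 (without those sets), DNMT3B 0.17 (loess) and 0.048 (quantile), and under median centring ALDH2 gave -0.10, PPP1R18 -0.22 and SLC30A1 -0.33. Leaving out 1 array gave -0.017 to 0.88 for OTX2 and -0.10 to 0.27 for SLC30A1. The cause of these moves was not tested. Fewer arrays, and signals near the array median, limit what small or dim changes could be seen.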

Other observations

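Secreted signals outside the lists above also differed. Of 13 tested chemokine genes 6 were higher and 3 lower. CXCR4, the receptor of migrating endoderm and mesoderm, read 316 and 324 in undifferentiated cells against 5500 and 5750 in embryoid bodies, 17.6-fold higher (limma adjusted p = 1.02e-05), and ACKR3, its scavenging partner, was 18.4-fold higher. CCL26 was at least 3.55-fold lower, beside the falls of CXCL5 and CXCL6. Of 20 genes of IGF signalling 9 were higher and 6 lower: IGFBP5 was 21.1-fold higher (363 and 282 against 6760 on both arrays) and PAPPA, a protease that frees IGF from its binding proteins, 14-fold higher. Among 10 intestinal genes 6 were higher and none lower, TFF1, a mucosal trefoil peptide, at least 16.8-fold. Of these 10, 3 passed the filter through embryoid body arrays alone.

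Of 24 targets of p53 and regulators of apoptosis 8 were higher and 11 lower. PMAIP1, the death-promoting protein NOXA, was 3.55-fold lower (8320 and 7760 against 2240 and 2290) and the nucleotide reductase subunit RRM2B 3.27-fold lower. Counts of genes higher and lower in the remaining lists were 4 and 2 of 9 for naive pluripotency, 4 and 2 of 11 for the primitive streak, 1 and 3 of 10 for smooth muscle, 3 and 1 of 13 for endothelium, 3 and 1 of 7 for trophoblast, and 2 and 2 of 6 for germ cells. They were 8 and 2 of 14 for cell cycle inhibitors, 0 and 2 of 5 for immune cells, 3 and 11 of 23 for housekeeping genes, and 4 and 6 of 14 for immediate early genes. Of the 23 housekeeping genes 15 belong to the brightest decile, of which 56.0% were lower. The counts in this section are to be read beside all tested genes, of which 29.2% were higher and 27.1% lower.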
